A study of Nicotiana tabacum with 6 samples.

Results

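Polyphenol oxidases, laccases and ascorbate oxidases are copper enzymes that pass electrons from phenols, or from ascorbate, to oxygen. They and related multicopper oxidases were examined in tobacco (Nicotiana tabacum) leaf. Members were the gene models whose protein domain description names a polyphenol oxidase, tyrosinase, multicopper oxidase or laccase. Of the 69500 gene models in the table, 128 met this rule: 15 polyphenol oxidases and 113 multicopper oxidases. Within the multicopper oxidases, 48 carry the laccase domain, 4 carry the plant L-ascorbate oxidase domain and 61 carry neither. The rule also asked for secretory peroxidases, and no description in the table holds that name, so that class has 0 members. Gene models described as "Plant peroxidase" are given further down as a related list outside the rule. A gene model was tested when it reached at least 1 FPKM (sequenced fragments corrected for transcript length and library size) in at least 3 of the 6 libraries, which 26 of the 128 did, 7 polyphenol oxidases and 19 multicopper oxidases. In MuGDH64 6 of the 7 polyphenol oxidases fell, while 2 of the 19 multicopper oxidases rose. Of all tested genes 9.74% were called lower and 2.2% higher. The multicopper oxidase rises numbered from 1 to 3 in other settings.

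The lines were MuGDH64, an aphid-resistant line bred from GDH64 by cobalt gamma irradiation, and its parent GDH64, with 3 leaf RNA sequencing libraries each. MuGDH64 is 1 selected irradiated line, so a difference belongs to that line as a whole and not to any 1 mutation in it; the title names a mutation in NtCYC, which was not analysed here. The plants grew in the field, where punches from the leaves of several plants of a plot were pooled, and leaves were taken at several ages. The plot, leaf age and season behind each library are not known here, and nothing states that the libraries of a line are separate plots, so p-values measure the spread between these libraries only.

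Polyphenol oxidases turn o-diphenols such as chlorogenic and caffeic acid into quinones, which brown and cross-link proteins. Most of them are sent into the chloroplast, so enzyme and phenols meet when a cell is broken, for example by a chewing insect. In plants of the nightshade family they are also abundant in glandular trichomes, and in tobacco they are known for leaf browning during curing. Laccases are secreted and join monolignols into lignin in vessel and fibre walls. Ascorbate oxidases are secreted as well and oxidise ascorbate in the cell wall space. Other plant multicopper oxidases include SKU5-type proteins, known in Arabidopsis from directional root growth.

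Most of the 128 gene models had little or no transcript in these leaves. Among the polyphenol oxidases 7 of 15 (46.7%) were tested, against 46.5% of all rows in the table. Of the 8 others, 5 were listed at 0 in every library and the highest single value was 0.4 FPKM, in Nitab4.5_0012569g0040. All 7 tested polyphenol oxidases had at least 1 FPKM in all 6 libraries, so none of them entered the test through 1 line alone. They come from the 12 models whose description names the tyrosinase, central and C-terminal domains together; none of the 3 models with fewer of these domains passed the filter.

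Laccases were the class with the least transcript. Only 3 of the 48 laccase-domain models (6.25%) passed the filter, 21 were listed at 0 in every library, and no model under the filter exceeded 0.35 FPKM, the value of Nitab4.5_0000258g0240. All 4 ascorbate oxidase-domain models passed, 3 of them with at least 1 FPKM in all libraries. Of the 61 other multicopper oxidases 12 (19.7%) passed. Among the 49 that did not, 16 were listed at 0 throughout, and the highest single value was 1.21 FPKM, in Nitab4.5_0007963g0040. Over all multicopper oxidases, 17 of the 88 models that name domain types 1, 2 and 3 passed, and 2 of the 25 that name fewer. When the filter was left off, 60 of the members under it could be fitted and limma called 0 of them; the lowest adjusted p was 0.0877, in Nitab4.5_0007963g0040. A value of 0 in this table can also be a failed estimate.

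**Figure D1:**
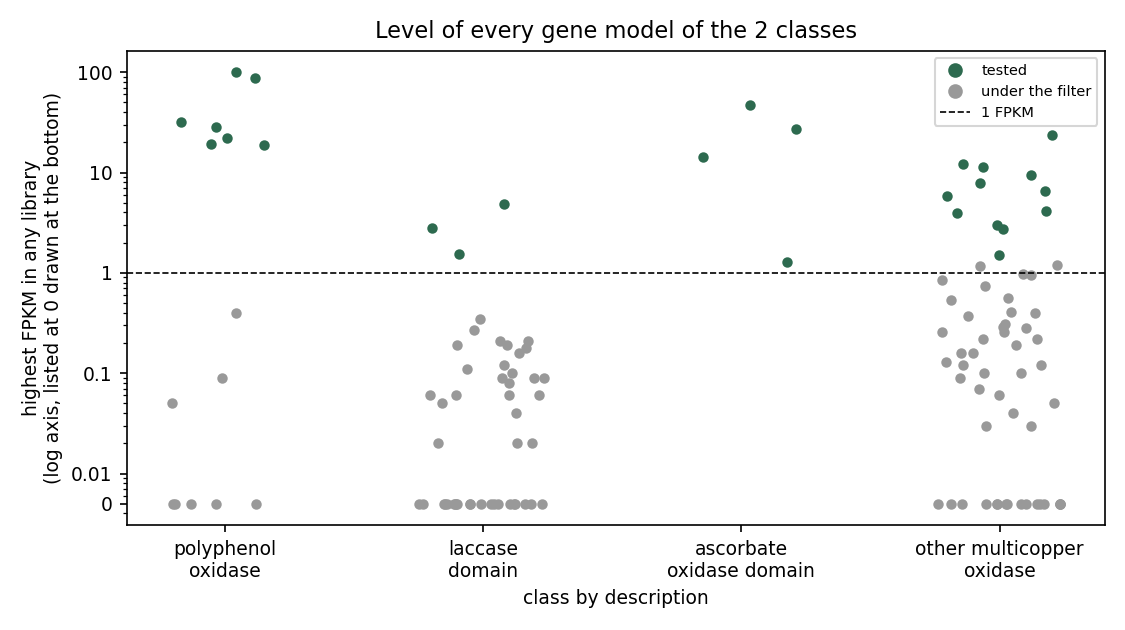
Highest FPKM in any of the 6 libraries (log axis, models listed at 0 drawn at the bottom) for each of the 128 gene models, by class. Tested models are green and models under the filter grey; laccase-domain models sit below 1 FPKM apart from 3, while all 4 ascorbate oxidase-domain models were tested.

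The comparison asked which of these enzymes differ in transcript level between the irradiated line and its parent. Tests used limma on log2(FPKM + 1) over all 32340 tested genes, with Benjamini-Hochberg adjustment and a threshold of 0.05. The median log2 fold change (MuGDH64 minus GDH64) of all tested genes was -0.176, so the change relative to that median is given beside each fold change; adjusted p-values belong to the change before this subtraction. In bulk leaf, fewer cells of a type and less RNA per cell cannot be told apart. The values of the members, by library, follow in the order of library 1, 2 and 3.

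Polyphenol oxidase transcripts were lower in MuGDH64. Of the 7 tested genes 6 fell and 0 rose by limma (0 rose also at an unadjusted p under 0.05), where 9.74% of all tested genes were called lower and 2.2% higher. The median log2 fold change of the 7 was -1.26, or -1.085 relative to the median of all genes. The 3 MuGDH64 libraries lay below the 3 GDH64 libraries for the same 6 genes, where 31.8% of all tested genes were separated in that direction. After quantile normalization 5 of the 7 were called lower, against 5.17% of all genes in that direction (9.6% either way), and after centring each library on its median 4 were, against 4.28% (10.3% either way).

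Nitab4.5_0006480g0020 had the largest relative fall of the class. It stood at 1.75, 2.38 and 1.46 FPKM in the MuGDH64 libraries and at 14.28, 19.33 and 8.91 FPKM in the GDH64 libraries. The lowest GDH64 library was thus well above the highest MuGDH64 library, although the GDH64 libraries differed 2.17-fold among themselves. The means were 1.86 ± 0.470 FPKM in MuGDH64 and 14.2 ± 5.21 FPKM in GDH64 (SD, n = 3 libraries each, as in all means below), so MuGDH64 had 13.2% of the GDH64 level. The log2 fold change was -2.36 (SE 0.25, adjusted p = 0.00111), or -2.18 relative to the median of all genes.

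Nitab4.5_0002200g0010 and Nitab4.5_0003171g0010 fell to about the same share of their level in the parent. The first stood at 8.43, 9.82 and 6.35 FPKM in MuGDH64 and at 24.44, 28.44 and 24.15 FPKM in GDH64, so MuGDH64 had 31.9% of the GDH64 level. Its log2 fold change was -1.55 (SE 0.15, adjusted p = 8.03e-04), or -1.37 relative to all genes. The second was the more abundant gene, and its parent libraries were less alike: it stood at 22.73, 21.83 and 17.31 FPKM in MuGDH64 and at 58.85, 88.04 and 41.21 FPKM in GDH64. MuGDH64 had 32.9% of the GDH64 level of Nitab4.5_0003171g0010, with a log2 fold change of -1.50 (SE 0.24, adjusted p = 0.00726), or -1.32 relative to all genes.

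Nitab4.5_0002482g0070 varied least between libraries of a line. Its values were 11.72, 12.14 and 11.88 FPKM in MuGDH64 and 28.31, 29.62 and 32.03 FPKM in GDH64, with coefficients of variation of 1.78% and 6.29%. The means of 11.9 ± 0.212 and 29.99 ± 1.89 FPKM gave a log2 fold change of -1.26 (SE 0.10, adjusted p = 2.11e-04), the smallest adjusted p of the class. Of the 7 genes it had neither the highest level nor the largest fall, but the libraries closest to each other in both lines.

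Nitab4.5_0007696g0010 also fell, with a call that depended on the processing. It stood at 7.03, 7.39 and 4.19 FPKM in MuGDH64 and at 12.62, 22.13 and 10.32 FPKM in GDH64, so the lines did not overlap but both were spread widely. The log2 fold change was -1.12 (SE 0.27, adjusted p = 0.0334), or -0.94 relative to all genes. The call held in 7 of 14 other settings; the adjusted p was 0.0624 after quantile normalization, 0.0581 after median-centring and 0.0721 without GDH64 library 2, where the log2 fold change was -0.82. It also missed without MuGDH64 library 1 (0.0529), MuGDH64 library 3 (0.105) or GDH64 library 1 (0.0578), and without the filter on low values (0.0875).

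The remaining pair, Nitab4.5_0000907g0090 and Nitab4.5_0000907g0080, carry consecutive numbers on the same scaffold, and 1 of them was called. Nitab4.5_0000907g0090, the most abundant polyphenol oxidase in both lines, stood at 62.67, 56.66 and 64.56 FPKM in MuGDH64 and at 82.74, 99.63 and 84.21 FPKM in GDH64. It fell to 69.0% of the GDH64 level, the smallest fall among the 6 called genes, with a log2 fold change of -0.53 (SE 0.10, adjusted p = 0.0159), or -0.35 relative to all genes. The call was lost after median-centring (adjusted p = 0.0726) and without MuGDH64 library 2 (0.06).

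Its neighbour Nitab4.5_0000907g0080 was the 1 tested polyphenol oxidase not called. It stood at 10.62, 18.94 and 9.66 FPKM in MuGDH64 and at 8.71, 10.10 and 9.90 FPKM in GDH64, so the lines overlapped and 1 MuGDH64 library was well above the other two. The log2 fold change was 0.36 with a 95% interval from -0.14 to 0.85 (adjusted p = 0.291), an interval that leaves out a fall of the size seen in Nitab4.5_0000907g0090. As a share of its neighbour's level it made 16.9%, 33.4% and 15.0% in the MuGDH64 libraries and 10.5%, 10.1% and 11.8% in the GDH64 libraries. All MuGDH64 shares were above all GDH64 shares; this ratio was formed after the values had been seen and was not tested.

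**Figure D2:**
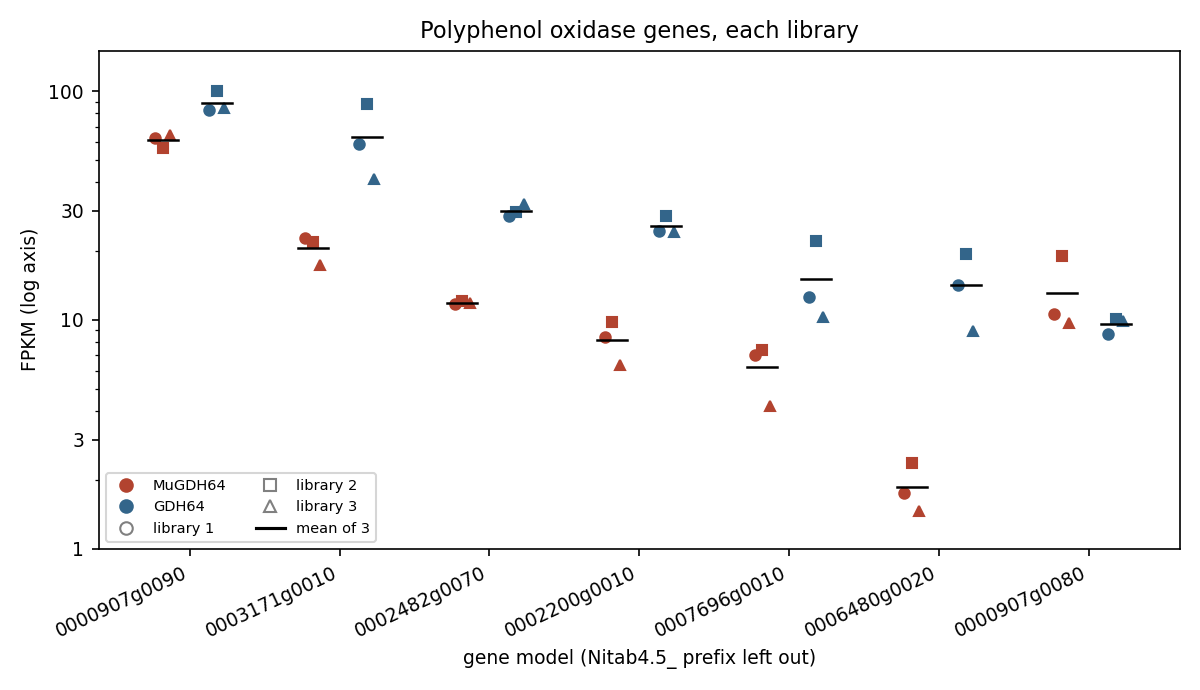
FPKM (log axis) of the 7 tested polyphenol oxidases in each library, MuGDH64 red and GDH64 blue, with marker shape for the library number and a bar for the mean of 3. The red points lie below the blue points for every gene but Nitab4.5_0000907g0080, where they overlap.

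Summed over all 15 models, polyphenol oxidase transcript came to 125.0, 129.2 and 115.4 FPKM in the MuGDH64 libraries and to 230.1, 297.3 and 211.1 FPKM in the GDH64 libraries. The sum in MuGDH64 was 50.05% of that in GDH64, and the highest MuGDH64 library stood below the lowest GDH64 library. With the 2nd GDH64 library left out it was 55.9%, and leaving out any other library gave between 46.7% and 51.6%. As a share of all FPKM in a library the class made 0.0174% to 0.0183% in MuGDH64 and 0.029% to 0.0393% in GDH64.

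The makeup of the class differed as well. Nitab4.5_0000907g0090 supplied on average 50.0% of the polyphenol oxidase FPKM in MuGDH64 (43.8% to 55.9% by library) and 36.5% in GDH64 (33.5% to 39.9%). The share of Nitab4.5_0000907g0080 was 10.5% in MuGDH64 and 3.96% in GDH64, that of Nitab4.5_0003171g0010 was 16.7% and 24.9%, and that of Nitab4.5_0006480g0020 was 1.5% and 5.64%. For each of these 4 genes the MuGDH64 and GDH64 shares did not overlap. Nor did those of Nitab4.5_0002200g0010, at 5.5% to 7.6% in MuGDH64 and 9.57% to 11.4% in GDH64. The shares of Nitab4.5_0002482g0070 and Nitab4.5_0007696g0010 overlapped. A lower share of some genes raises that of others by construction, and shares were not tested. The mean share was higher in MuGDH64 for the neighbouring pair and lower for the other 5 genes.

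The libraries of a line did not rank evenly. In GDH64 the 2nd library, which had the largest summed FPKM of all 6, was the highest of its line for 6 of the 7 genes, as it was for 53.2% of all tested genes, and the 3rd was the lowest for 4, as for 46.9% of all. The highest over the lowest GDH64 library was 2.14-fold for Nitab4.5_0003171g0010 and for Nitab4.5_0007696g0010, against 1.13-fold for Nitab4.5_0002482g0070. In MuGDH64 the 3rd library, which also had the smallest summed FPKM of all genes, was the lowest of its line for 5 of the 7, as it was for 61.7% of all tested genes. Without the 2nd GDH64 library the log2 fold changes of the 6 genes ran from -2.12 for Nitab4.5_0006480g0020 to -0.44 for Nitab4.5_0000907g0090, and 5 of the 6 were called.

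**Figure D3:**
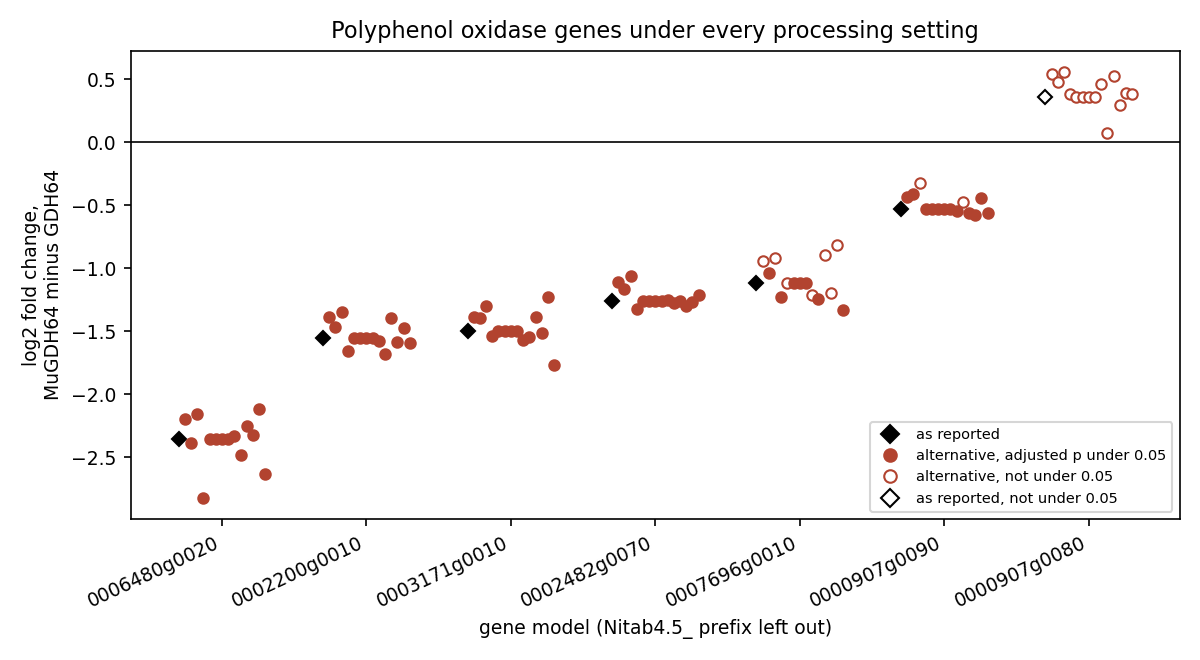
Log2 fold change (MuGDH64 minus GDH64) of each tested polyphenol oxidase as reported (black diamond) and under 14 other settings (red circles), filled where the adjusted p was under 0.05. The 6 genes that fell stay below 0 in every setting shown, and the open circles belong to Nitab4.5_0007696g0010, Nitab4.5_0000907g0090 and the gene that was not called, Nitab4.5_0000907g0080.

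The multicopper oxidases as a class did not show the fall of the polyphenol oxidases. Of the 19 tested genes 2 rose and 0 fell by limma, where 2.2% of all tested genes were called higher and 9.74% lower; at an unadjusted p under 0.05, 2 were higher and 3 lower. Limma without the mean-variance trend called 2 higher and 1 lower. The count of rises was 1 without MuGDH64 library 1, MuGDH64 library 3, GDH64 library 1 or GDH64 library 2. The median log2 fold change of the 19 was -0.04, which is 0.14 above the median of all genes. In 4 of the 19 the MuGDH64 libraries lay above the GDH64 libraries and in 3 below, where 5.68% and 31.8% of all genes did. After quantile normalization 3 were called higher, against 4.43% of all genes, and 0 lower, and at an unadjusted p under 0.05 5 were higher and 0 lower. Summed over all 113 models the class came to 175.5, 175.8 and 157.9 FPKM in MuGDH64 and to 159.7, 161.0 and 162.7 FPKM in GDH64, which overlap. As a share of all FPKM in a library, whose total was lower in every MuGDH64 library, it made 0.0244% to 0.0249% in MuGDH64 and 0.0212% to 0.0223% in GDH64, which do not. By the same measure the laccase-domain models overlapped between the lines. The ascorbate oxidase-domain models (0.0117% to 0.0119% in MuGDH64, 0.0092% to 0.0106% in GDH64) and the other multicopper oxidases (0.0116% to 0.0119% in MuGDH64, 0.0107% to 0.0108% in GDH64) did not.

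Among the ascorbate oxidase-domain genes, Nitab4.5_0000518g0090 rose in MuGDH64. It stood at 26.93, 26.61 and 24.17 FPKM in MuGDH64 and at 14.08, 12.16 and 16.47 FPKM in GDH64, with every MuGDH64 library above every GDH64 library. The mean was 1.82-fold higher, with a log2 fold change of 0.83 (SE 0.12, adjusted p = 0.00561), or 1.004 relative to all genes. It passed in all 14 other settings, with adjusted p from 0.00235 to 0.0233.

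The other 3 ascorbate oxidase-domain genes were not called. Nitab4.5_0000214g0080, the most abundant multicopper oxidase of these leaves, stood at 43.80, 42.25 and 40.63 FPKM in MuGDH64 and at 40.53, 42.75 and 47.17 FPKM in GDH64, and the lines overlapped. Its log2 fold change was -0.04 with a 95% interval from -0.25 to 0.18 (adjusted p = 0.798), and the sign turned after quantile normalization. Nitab4.5_0005212g0020 averaged 11.8 ± 1.59 FPKM in MuGDH64 and 13.4 ± 0.929 FPKM in GDH64 (adjusted p = 0.36). Nitab4.5_0012843g0010 averaged 0.767 ± 0.280 and 1.09 ± 0.229 FPKM (adjusted p = 0.373), close to the filter. The sum of the 4 genes was 83.86, 82.78 and 75.37 FPKM in MuGDH64 and 69.1, 70.43 and 76.99 FPKM in GDH64, and a single pair of libraries overlapped.

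The 3 tested laccase-domain genes showed no difference beyond the spread of their libraries. Nitab4.5_0003402g0060 stood at 4.27, 4.37 and 2.91 FPKM in MuGDH64 and at 4.85, 3.65 and 3.31 FPKM in GDH64. Its log2 fold change was -0.03 with a 95% interval from -0.43 to 0.37 (adjusted p = 0.926). Nitab4.5_0006115g0040 averaged 1.93 ± 0.593 FPKM in MuGDH64 and 1.90 ± 0.765 FPKM in GDH64, and its interval ran from -0.48 to 0.53. Nitab4.5_0000178g0220 averaged 1.24 ± 0.178 and 1.35 ± 0.190 FPKM, and its interval ran from -0.41 to 0.27. Limma called 0 of the 3, and 0 had an unadjusted p under 0.05; at levels this low the log2(FPKM + 1) scale understates a change. Falls as deep as those of the 5 most changed polyphenol oxidases lie outside all 3 intervals. The low parent levels cap the fall that this scale can show, so that comparison cannot decide whether these genes share the fall.

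Of the 12 other multicopper oxidases tested, 1 rose. Nitab4.5_0000993g0110 stood at 6.48, 5.31 and 6.44 FPKM in MuGDH64 and at 3.56, 3.65 and 4.06 FPKM in GDH64, a 1.62-fold higher mean with no overlap. Its log2 fold change was 0.57 (SE 0.13, adjusted p = 0.0234), or 0.75 relative to all genes. The call held in 9 of 14 other settings; the adjusted p was above the threshold, among others, without GDH64 library 1 (0.0808), GDH64 library 2 (0.0607), MuGDH64 library 1 (0.0726) or MuGDH64 library 3 (0.0792).

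Nitab4.5_0004776g0020, the most abundant of these 12, was not called on the deposited values. It stood at 23.17, 23.67 and 19.25 FPKM in MuGDH64 and at 18.68, 18.44 and 18.08 FPKM in GDH64, without overlap, and its log2 fold change was 0.24 (adjusted p = 0.166). After quantile normalization the log2 fold change was 0.39 and the adjusted p was 0.0205, so its call rested on the scaling. Nitab4.5_0004782g0030 likewise had no overlap, with 7.06 ± 0.691 FPKM in MuGDH64 and 5.89 ± 0.375 FPKM in GDH64, and was not called (adjusted p = 0.228).

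For 3 of the 12 genes the MuGDH64 libraries lay below the GDH64 libraries without a call. Nitab4.5_0000730g0120 averaged 2.58 ± 0.354 FPKM in MuGDH64 and 3.90 ± 0.282 FPKM in GDH64 (adjusted p = 0.0589). Nitab4.5_0000718g0250 averaged 8.28 ± 1.17 and 11.1 ± 1.26 FPKM (adjusted p = 0.0954), and Nitab4.5_0000038g0190 averaged 2.18 ± 0.550 and 3.37 ± 0.543 FPKM (adjusted p = 0.109). The log2 fold changes of these genes were -0.46, -0.39 and -0.47, and -0.28, -0.21 and -0.29 relative to all genes. The other 6 genes had overlapping lines: Nitab4.5_0009901g0020, Nitab4.5_0000588g0280, Nitab4.5_0007024g0020, Nitab4.5_0011301g0050, Nitab4.5_0002518g0040 and Nitab4.5_0002157g0010. Their log2 fold changes ran from -0.32 for Nitab4.5_0009901g0020 to 0.27 for Nitab4.5_0002157g0010.

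**Figure D4:**
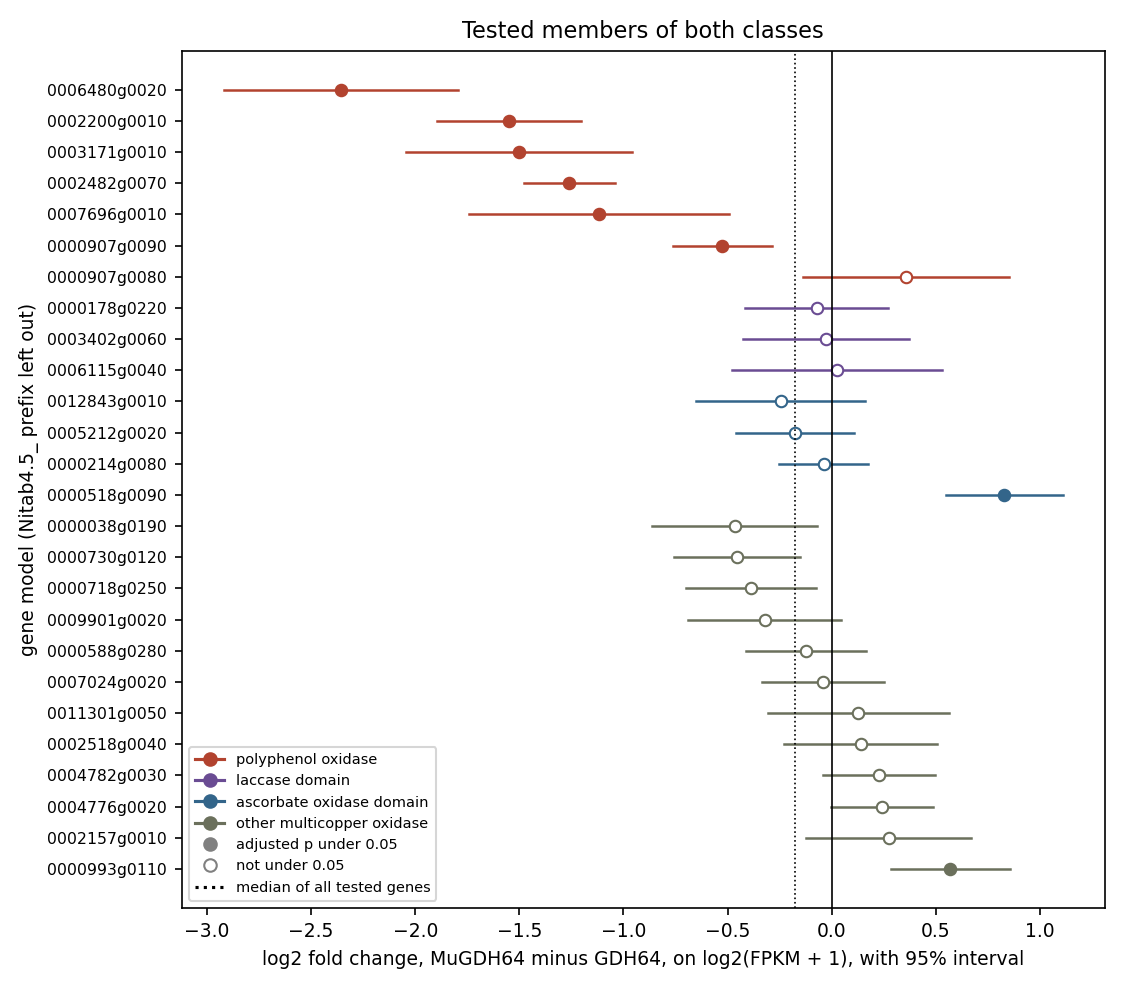
Log2 fold change (MuGDH64 minus GDH64, on log2(FPKM + 1)) with its 95% interval for the 26 tested members, coloured by class and filled where the adjusted p was under 0.05; the dotted line is the median of all tested genes, at -0.176. The polyphenol oxidases spread from -2.36 to 0.36, while the multicopper oxidases lie between -0.47 and 0.83.

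By level, the polyphenol oxidases held more of the top places in the parent than in the irradiated line. FPKM is scaled to transcript length, so levels of different genes can be set side by side. In GDH64 the highest means were those of Nitab4.5_0000907g0090 at 88.9 ± 9.36 FPKM, Nitab4.5_0003171g0010 at 62.7 ± 23.7 FPKM and the ascorbate oxidase-domain gene Nitab4.5_0000214g0080 at 43.5 ± 3.38 FPKM. The libraries of the last pair of these overlap, so their order is not beyond the spread. In MuGDH64 Nitab4.5_0000907g0090 also led, at 61.3 ± 4.125 FPKM, followed by Nitab4.5_0000214g0080 at 42.2 ± 1.59 FPKM and Nitab4.5_0000518g0090 at 25.9 ± 1.51 FPKM. Next came Nitab4.5_0004776g0020 at 22.0 ± 2.42 FPKM and Nitab4.5_0003171g0010 at 20.6 ± 2.91 FPKM, whose libraries overlapped.

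**Figure D5:**
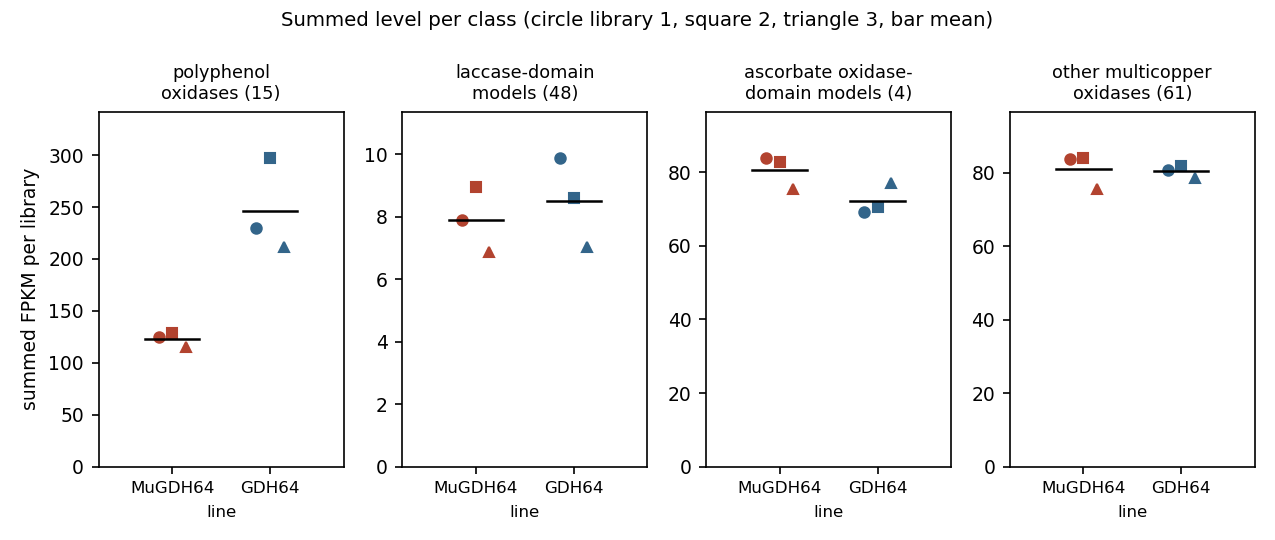
Summed FPKM per library over all models of each class (number of models in brackets), MuGDH64 left in red and GDH64 right in blue, with a bar for the mean of 3. The polyphenol oxidase sums lie between 115.4 and 129.2 FPKM in MuGDH64 and between 211.1 and 297.3 FPKM in GDH64, while these sums of the other 3 classes overlap between the lines.

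Members also share scaffolds. In the ID of a gene model the number before the g names the scaffold, and 32 of the 113 multicopper oxidases stand on 15 scaffolds that hold more than 1 of them, at most 3 on 1 scaffold. On 5 of these scaffolds 1 model was tested while its neighbour stayed under the filter, among them the laccase-domain genes Nitab4.5_0006115g0040 and Nitab4.5_0000178g0220. The polyphenol oxidases have 1 such pair, the one described above, and both of its models were tested. Tobacco is an allotetraploid, so levels of closely alike family members are uncertain where the counting divided reads among copies.

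The table's plant peroxidases, heme enzymes of the secreted class that couple hydrogen peroxide to phenol oxidation in the cell wall, were the closest match to the class without members. The list was chosen after the descriptions had been read and leaves out ascorbate peroxidases. Of its 210 models 39 were tested, and 5 rose and 8 fell, where 2.2% of all tested genes were called higher and 9.74% lower. After quantile normalization 6 rose and 5 fell, where 4.43% and 5.17% of all genes did. Of the 13 called, 2 passed the filter through 1 line alone. Nitab4.5_0009120g0020 fell to 72.7 ± 4.03 FPKM in MuGDH64, against 134 ± 3.24 FPKM in GDH64 (adjusted p = 7.25e-04), and Nitab4.5_0000099g0090 fell to 6.97 ± 0.705 FPKM, against 19.0 ± 2.37 FPKM (adjusted p = 7.24e-04). Nitab4.5_0002731g0010 rose to 5.96 ± 0.488 FPKM, against 1.82 ± 0.265 FPKM in GDH64 (adjusted p = 9.45e-04), while Nitab4.5_0000669g0080, with 3.33 ± 0.590 FPKM in MuGDH64 and 0.803 ± 0.163 FPKM in GDH64, passed the filter only through the MuGDH64 libraries, so its call is no independent support. Their median log2 fold change was -0.02 relative to that of all genes, with changes in both directions, whereas that of the polyphenol oxidases was at -1.085 relative to it. Summed over the list, MuGDH64 had 427.6, 399.6 and 367.4 FPKM and GDH64 had 529.1, 562.6 and 527.4 FPKM. The count of calls was 8 without GDH64 library 1, 8 without MuGDH64 library 1 or 2, and 7 without MuGDH64 library 3. Among the 24 tested haem peroxidases outside this list, 17 of them with the ascorbate peroxidase domain, 2 rose and 5 fell, and 4 rose and 4 fell after quantile normalization, against the same shares of all genes.

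Gene lists for lignin and phenylpropanoid enzymes, hydrogen peroxide sources and copper proteins were read against the 11.9% of all tested genes called (2.2% higher, 9.74% lower). Whether their members supply the oxidases or peroxidases above was not tested. In a list of lignin and phenylpropanoid enzymes 6 of 19 tested genes rose and 2 fell (42.1% called). Both that fell are phenylalanine ammonia-lyases, the entry step from phenylalanine to phenols: Nitab4.5_0002130g0010 had 25.2 ± 2.28 FPKM in MuGDH64 and 40.8 ± 6.47 FPKM in GDH64 (adjusted p = 0.0146), and Nitab4.5_0012382g0010 had 1.96 ± 0.657 and 5.80 ± 0.415 FPKM (adjusted p = 0.00444). A family 3 O-methyltransferase, Nitab4.5_0002765g0010, of the family that holds caffeoyl-CoA O-methyltransferases, rose to 18.4 ± 0.755 FPKM, against 9.32 ± 2.16 FPKM in GDH64 (adjusted p = 0.00949), and Nitab4.5_0018811g0010 of the same family rose to 4.59 ± 0.657 FPKM, against 2.26 ± 0.767 FPKM (adjusted p = 0.0307). The last call held in 6 of 13 other settings. It was lost without MuGDH64 library 1 (0.0515), 2 (0.0897) or 3 (0.0846) and without GDH64 library 2 (0.0664) or 3 (0.0541). It was also lost without the filter (0.0772) and with the library number as a block (0.0618). In a list of hydrogen peroxide sources 1 of 58 tested genes rose and 2 fell (5.17% called), and in a list of copper transport and blue copper proteins 2 of 53 rose and 1 fell (5.66% called); both shares are below that of all genes. After quantile normalization 5 of the 53 in the copper list rose and 1 fell (11.3% called), against 9.6% of all genes. After median-centring 8 rose and 1 fell (17.0% called), against 10.3%. The share of the copper list was thus below that of all genes only on the deposited values. The 2 that fell in the hydrogen peroxide list are copper amine oxidases, which release hydrogen peroxide from amines. Nitab4.5_0006822g0040 had 13.2 ± 1.18 FPKM in MuGDH64 and 24.0 ± 0.476 FPKM in GDH64 (adjusted p = 0.00274), and Nitab4.5_0004153g0040 had 37.1 ± 4.12 and 51.2 ± 0.945 FPKM (adjusted p = 0.0255). The second of these calls held in 9 of 14 other settings. It was lost after median-centring (0.0908), without MuGDH64 library 3 (0.0509) and without GDH64 library 1 (0.0838), 2 (0.0611) or 3 (0.0567). Of the blue copper proteins, which carry electrons, Nitab4.5_0007069g0040 rose to 15.3 ± 2.57 FPKM, against 9.72 ± 1.85 FPKM in GDH64 (adjusted p = 0.0404), and Nitab4.5_0002026g0130 fell to 9.86 ± 0.475 FPKM, against 14.8 ± 1.14 FPKM (adjusted p = 0.0158). The rise held in 6 of 14 other settings. It was lost without MuGDH64 library 1 (0.0996), 2 (0.0573) or 3 (0.085) and without GDH64 library 1 (0.117) or 2 (0.117). It was also lost without the filter (0.0826), without the mean-variance trend (0.0527) and with the library number as a block (0.0562). The fall was lost in 1 of 14, without MuGDH64 library 2 (0.0539). A copper/zinc superoxide dismutase, Nitab4.5_0000173g0130, is the 1 gene that rose in the hydrogen peroxide list and 1 of the 2 that rose in the copper list. It entered the copper list because its description also names a superoxide dismutase copper chaperone. Its level was 236 ± 12.7 FPKM in MuGDH64 and 185.8 ± 4.79 FPKM in GDH64 (adjusted p = 0.0302). This call held in 7 of 14 other settings. It was lost without MuGDH64 library 1 (0.0616) or 2 (0.116) and without GDH64 library 1 (0.0889), 2 (0.0826) or 3 (0.0671). It was also lost without the filter (0.053) and without the mean-variance trend (0.0723).

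Lists picked by description text for photosynthesis, terpene synthases, cell walls and pollen were read beside the polyphenol oxidase result. They are gene families and not tested markers of a cell type or leaf part. Their part in the polyphenol oxidase result was not tested. Photosynthesis genes (266 models, 189 tested) summed to between 41140 and 45620 FPKM in MuGDH64 and between 41780 and 44520 FPKM in GDH64, which overlap, and made 6.25% to 6.49% of all FPKM in MuGDH64 and 5.74% to 5.89% in GDH64, which do not. Of them 4 rose and 16 fell (10.6% called, near the 11.9% of all genes). The split turned to 15 and 7 after quantile normalization (11.6%, against 9.6% of all genes) and 30 and 7 after median-centring (19.6%, against 10.3%). The chlorophyll a-b binding genes among them differed from the whole list. They made 0.998% to 1.05% of all FPKM in MuGDH64 and 1.01% to 1.07% in GDH64, which overlap. Of 63 tested, 2 rose and 14 fell (25.4% called), or 3 and 7 after quantile normalization (15.9%, against 9.6% of all genes). Terpene synthase domain genes, linked to glandular trichomes, summed to between 312.5 and 353.4 FPKM in MuGDH64 and between 242.8 and 270.9 FPKM in GDH64. Of 37 tested, 9 rose and 6 fell (40.5% called), or 10 and 4 after quantile normalization (37.8%, against 9.6% of all genes). Single members weigh on that sum and go both ways. Nitab4.5_0005904g0070 had 44.8 FPKM in MuGDH64 and 5.80 FPKM in GDH64, while Nitab4.5_0003738g0070 had 1.02 and 9.00 FPKM. Secondary wall and vascular genes summed to between 658.2 and 710.4 FPKM in MuGDH64 and between 804.2 and 902.3 FPKM in GDH64, and 3 of 62 rose and 15 fell (29.0% called). After quantile normalization 3 rose and 8 fell (17.7%, against 9.6% of all genes). After median-centring 4 rose and 6 fell (16.1%, against 10.3%). A list of genes whose description names a pollen or pistil protein also holds expansins and extensin-like proteins. With 79 of 169 models listed at 0 throughout, it had 2 higher and 8 lower of 47 (21.3% called). The list summed to between 837.8 and 905.8 FPKM in MuGDH64 and between 934.6 and 985.9 FPKM in GDH64. As a share of all FPKM this list made 0.126% to 0.132% in MuGDH64 and 0.124% to 0.135% in GDH64, which overlap.

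Over the whole table the libraries differed modestly. Summed FPKM lay between 634425 and 719776 in MuGDH64 and between 728572 and 756316 in GDH64, with no overlap, and the read depth is unknown. Pearson's r across tested genes, which are not independent replicates, was at least 0.9686 within a line and at most 0.9615 between lines. In total 3863 genes (11.9%) were called, 712 higher and 3151 lower; after quantile normalization 1433 were higher and 1671 lower, so the split by direction moved with the scaling. The total was 2571, 2028 and 1854 without MuGDH64 library 1, 2 or 3, and 1794 and 1939 without GDH64 library 1 or 2.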

How the data were processed

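RNA was taken from leaf with TRIzol and DNase I and sequenced as paired-end TruSeq libraries, per the labels' protocols; TopHat2 and Cufflinks are named in the submitters' processing notes, without versions. The genome build is not given in the sources used here. Deposited was 1 table with 1 value per gene model and library; its header names no unit, and the values were taken as the authors' FPKM by inference from their range and from Cufflinks. Low values shared no clear step between libraries (at most 15.3% of low genes at 1 ratio), so depth is unknown and no counting error is given. In FPKM, a few abundant transcripts that take more of a library lower the values of all other genes.

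Members and lists were chosen with earlier results of these data known. The test was limma (3.58.1, R 4.3.3) with the mean-variance trend, two-sided, with line as its only term and a pseudocount of 1, for genes that reached 1 FPKM in 3 or more libraries. The script was tested on simulated data. The genes named were all tested polyphenol oxidases, and the up to 8 largest called changes each way and the 4 most abundant of each other class. For the plant peroxidase, substrate and copper lists, up to 2 called genes each way with the smallest adjusted p were named. From the other lists only the terpene synthase with the smallest adjusted p each way was named. The remaining tested members are named for completeness. None of the gene IDs matched the RefSeq gene table (0 IDs), so no sequence or position is given. Tables and plots were made with Python 3.11.15, pandas 2.3.3 and matplotlib 3.10.9. The alternatives were quantile normalization, rescaling to a common sum, median-centring, a pseudocount of 0.1, no filter, a filter of 5 FPKM, limma without the trend, a replicate block and each library left out.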

Additional observations from a re-analysis of the deposited data

How the results depend on the processing

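The number of polyphenol oxidases called lower stayed between 4 and 6 over the 14 alternatives, and leaving out 1 library gave between 5 and 6. Of the 98 values for these genes none changed sign and 9 lost the call. The multicopper oxidase count was 1 without the filter on low values, and between 1 and 2 with 1 library left out. The count over all tested genes was 2280 without the filter, where more genes entered the adjustment, and between 1794 and 3141 with 1 library left out. The plant peroxidase count lay between 7 and 10 with 1 library left out. With the replicate block 3991 genes were called in all, 6 polyphenol oxidases, 2 multicopper oxidases and 13 plant peroxidases. Deviations of same-numbered libraries from their line means had r of 0.0148, 0.0131 and 0.0511. Differently numbered libraries had r from -0.0459 to 0.0281. Correlations this small, from 3 libraries a line, cannot decide whether the numbers pair the samples. The shares of higher calls among all called genes were 18.4% as deposited, 36.4% rescaled to a common sum, 46.2% after quantile normalization and 58.4% after median-centring.

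Sign changes occurred in 23 of the 254 values of multicopper oxidases, in genes called in no setting; the cause was not tested. Under quantile normalization, rescaling and median-centring, in that order, Nitab4.5_0000214g0080 had log2 fold changes of 0.069, 0.079 and 0.16, Nitab4.5_0003402g0060 of 0.17, 0.071 and 0.17, and Nitab4.5_0007024g0020 of 0.16, 0.063 and 0.16. Under quantile normalization and median-centring, Nitab4.5_0000178g0220 had 0.078 and 0.13 and Nitab4.5_0000588g0280 had 0.059 and 0.077; Nitab4.5_0005212g0020 had 0.026 under median-centring. With 1 library left out, log2 fold changes ran from -0.087 to 0.020 for Nitab4.5_0000214g0080, from -0.12 to 0.12 for Nitab4.5_0003402g0060, from -0.11 to 0.026 for Nitab4.5_0007024g0020, from -0.13 to 0.23 for Nitab4.5_0006115g0040 and from -0.075 to 0.28 for Nitab4.5_0011301g0050. The planned count of secretory peroxidases could not be made, since no description holds that name. With 3 libraries a line and no known depth, differences in the low laccase-domain genes below the width of their intervals were not detectable.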
